A study of Mus musculus with 7 samples.

Results

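Carbaryl was compared with control as 1 library of each, out of 7 libraries in the series, all from cultures of mouse neural cells. The comparison covered 102965 distinct transcript events seen in carbaryl or control, out of 126309 in the series, and 5721 genes built from them. The carbaryl culture had been exposed for 1 day, and the control culture had not been given an insecticide by its label. The 5 other exposed libraries (chlorpyrifos, DDT, rotenone, deltamethrin and imidacloprid) give the spread between libraries. Every culture was of wild-type genotype and came from the B6G-2 mouse embryonic stem cell line by way of embryoid bodies (6 days) and progenitors grown in bFGF and EGF. At day 14 the progenitors were placed in a differentiation medium with the agent. What limits the model is that it is 1 stem cell line in culture, labelled as brain tissue, with no dose, no vehicle and no repeat culture stated in the labels, which also do not say whether the libraries came from separate differentiations. No difference has a replicate check and none was tested.

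Carbaryl is a carbamate insecticide. Carbamates block acetylcholinesterase, the enzyme that ends the acetylcholine signal at synapses, by reacting with a serine in its active site, and they can reach other serine hydrolases in the same way. Acetylcholine receptors are present on neural progenitors and glia as well as on neurons. A gene can also answer a treatment without changing its total output, by using another promoter, another end or another set of exons, and the deposited values describe such choices event by event in FPKM, fragment numbers scaled to transcript length and library size.

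Among the named skipped exons that are fully coding, those of Ehmt2, Epb41 and Focad are printed here. By their paired inclusion and skipping lines, they had a gap of 53.6 to 62.5 percentage points between carbaryl and the other 6 libraries. The Epb41 pair leaves out forms that hold the exon together with its neighbouring upstream exons. Its gap is therefore not that of the exon over all forms. Capitals mark the exon that is included or skipped. Lower case marks the last and first 15 bases of the neighbouring exons. The sequences are from the GENCODE M21 transcripts, in the direction of transcription, with GRCm38 positions of the exon.
Ehmt2, chr17:34905610-34905711, plus strand: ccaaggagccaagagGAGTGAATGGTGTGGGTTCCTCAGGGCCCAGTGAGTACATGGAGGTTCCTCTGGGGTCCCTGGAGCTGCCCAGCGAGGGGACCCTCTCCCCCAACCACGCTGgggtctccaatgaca
Epb41, chr4:131962924-131962986, minus strand: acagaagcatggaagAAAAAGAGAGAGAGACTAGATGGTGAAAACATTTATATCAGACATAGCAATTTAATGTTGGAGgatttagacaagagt
Focad, chr4:88196759-88197016, plus strand: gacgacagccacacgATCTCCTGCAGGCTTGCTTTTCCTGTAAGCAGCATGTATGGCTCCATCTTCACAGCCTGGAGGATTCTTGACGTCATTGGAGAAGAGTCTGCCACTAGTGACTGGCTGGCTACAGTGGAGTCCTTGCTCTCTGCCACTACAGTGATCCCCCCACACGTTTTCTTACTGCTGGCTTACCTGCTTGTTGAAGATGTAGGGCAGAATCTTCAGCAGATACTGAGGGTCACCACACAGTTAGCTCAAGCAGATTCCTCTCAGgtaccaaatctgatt
The 3 exons are 102, 63 and 258 bases long, each a multiple of 3.

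The libraries were alike in size on the scale they were deposited in. Each listed between 90522 and 92229 distinct events, with 91109 for carbaryl and 90960 for control. Start events summed to 285970 FPKM in carbaryl and 289489 FPKM in control, and to between 282569 and 290440 FPKM in the 5 other exposed libraries. The files hold no read counts, so the depth of each library is unknown. Neural identity was checked on marker genes. The progenitor marker Nes stood at 196 FPKM in carbaryl and 206 FPKM in control, and the neuronal marker Map2 at 153 FPKM in carbaryl and 150 FPKM in control. The glial transporter Slc1a3 stood at 106 FPKM in carbaryl and 90.6 FPKM in control, and the oligodendrocyte lineage factor Olig2 at 169 FPKM in carbaryl and 161 FPKM in control. The tables hold only events above 0, and an event with no line was taken as 0; a gene is said to have no line where it had no start or end line. The astrocyte markers Gfap, Aqp4 and S100b were at or near 0. Gfap had no line in carbaryl and stood at 0.638 FPKM in control. Aqp4 had no start line in either and an end line in carbaryl but not in control. S100b stood at 0.304 FPKM in carbaryl and had no line in control. Other genes of the astrocyte list, such as Slc1a3 above and Glul below, were not near 0. Tubb3 and Sox2 had no start or end line and are not analysed here. In bulk RNA, fewer cells of a type and less RNA per cell cannot be told apart.

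Few genes differed 2-fold between carbaryl and control, and more were lower than higher with carbaryl. A gene's value was the mean of its summed starts and summed ends, and a fold is a difference of log2(FPKM + 1), which understates the change of low genes. Of 5711 genes with a value above 0 in both libraries, 41 were at least 2-fold higher in carbaryl (0.718%) and 71 at least 2-fold lower (1.24%), together 112 (1.96%). With a pseudocount of 5 FPKM in place of 1 FPKM, 25 were higher and 24 lower, so more lower than higher genes were found with the smaller pseudocount and not with the larger. The 5 other exposed libraries, set against the same control library, gave 85 to 94 genes. Carbaryl set against each of those 5 gave 89 to 112, and the 10 pairs among those 5 gave 90 to 106. The count for carbaryl against control was thus at the top of the range over all pairs of libraries. The difference lay in the lower genes: 71 in carbaryl, against 46 to 53 in the other exposed libraries. Higher genes numbered 41 in carbaryl and 35 to 45 in the others. Over all genes the median log2 difference was 0.00, with 2859 genes higher and 2852 lower, and its SD was 0.32, against 0.30 to 0.31 in the 5 other comparisons with control.

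**Figure D1:**
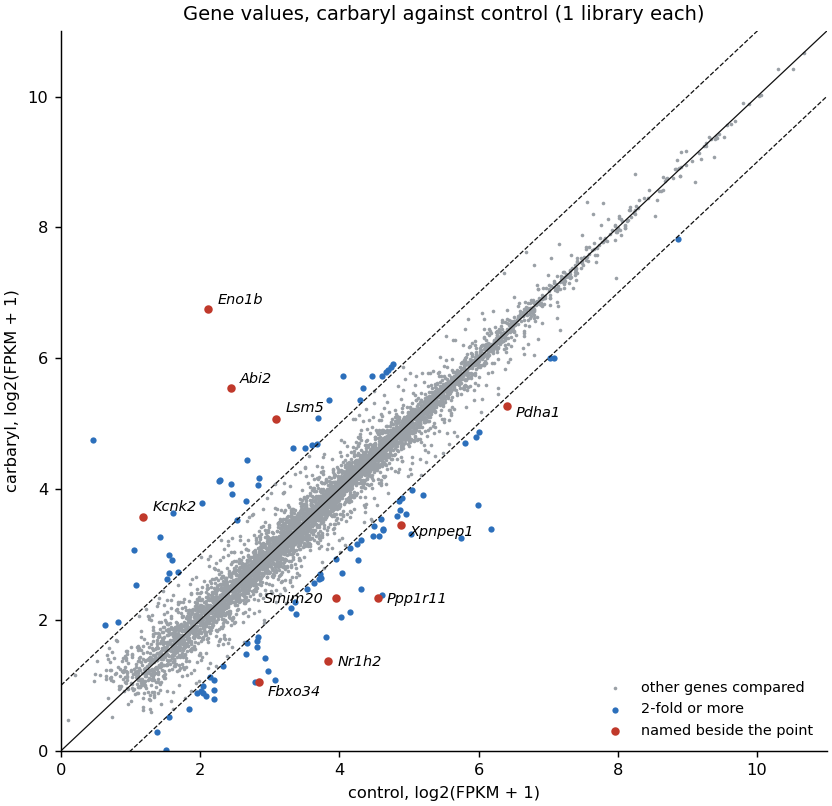
Gene values in carbaryl (vertical axis) and control (horizontal axis), 1 library each, both as log2(FPKM + 1). The solid line marks equal values and the dashed lines a 2-fold difference on that scale; 41 genes lie above the upper line and 71 below the lower one.

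**Figure D2:**
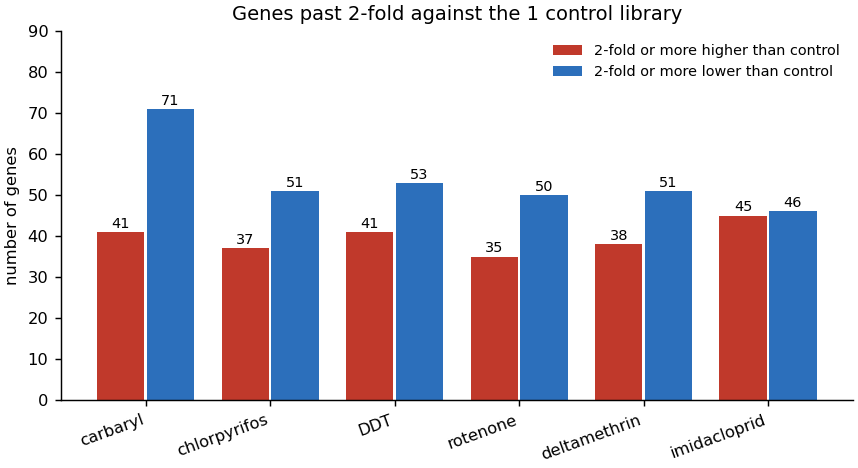
Number of genes at least 2-fold higher (red) and lower (blue) than the 1 control library in each exposed library. Carbaryl had 71 lower genes, against 46 to 53 in the other libraries, and 41 higher genes, against 35 to 45.

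In some of the genes past 2-fold carbaryl stood apart from the other libraries, in some the control library did, in some both and in some neither. Among the 71 lower genes, carbaryl was below all 6 other libraries in 49 and control was above all 6 exposed libraries in 26. Among the 41 higher genes, carbaryl was above all 6 others in 18, while control was below all 6 exposed libraries in 27. Neither stood apart in 10 of the lower and 7 of the higher genes. In the neuronal calcium sensor Syt1 only control stood apart. It stood at 12.9 FPKM in carbaryl, 11.5, 12.9, 12.3, 14.7 and 12.4 FPKM in chlorpyrifos, DDT, rotenone, deltamethrin and imidacloprid, and 3.07 FPKM in control. Carbaryl lay in the middle of the exposed libraries there. Start and end totals were each past 2-fold in 39 of the 41 higher and 60 of the 71 lower genes. The 2 totals are not separate readings, because genes were kept only where they agreed. Genes with many annotated transcripts were common: the median was 6 transcripts among the higher genes and 8 among the lower, against 4 among all 5721. The share past 2-fold was close to even across expression levels, at 1.96% of genes of 1 to 5 FPKM, 2.13% of genes of 5 to 20 FPKM and 1.74% of genes from 20 FPKM.

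Lower genes also outnumbered higher ones among the genes where carbaryl itself stood apart, as they did for each other exposed library in its place. Of the 4382 genes that averaged 5 FPKM or more, 38 were 2-fold lower than control and also below all 6 other libraries (0.867%), and 13 were 2-fold higher and above all 6 (0.297%). With each other exposed library in the place of carbaryl, the lower count was 20 to 30 and the higher count 7 to 13, with 30 lower and 7 higher for chlorpyrifos and 30 lower and 10 higher for deltamethrin. Carbaryl was 2-fold below its nearest library in 14 genes, against 4 to 8 genes in the 5 other exposed libraries and 9 in control. No gene was 2-fold above the nearest library in carbaryl, in control or in the other exposed libraries, except 1 gene in DDT. Over all genes and against the median of the 6 other libraries, carbaryl was 2-fold lower in 42 genes and higher in 14, with 34 to 44 lower and 8 to 16 higher genes for the 5 other exposed libraries and 31 lower and 14 higher for control. By that measure carbaryl was within the range of the other libraries.

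The nuclear receptor gene Nr1h2 had the widest gap below the other libraries. Nr1h2 (chr7:44549616-44553951, minus strand) encodes liver X receptor beta, a sterol-sensing receptor that turns on cholesterol efflux genes and is active in glia. It stood at 1.60 FPKM in carbaryl, 13.2, 14.9, 13.3, 12.1 and 14.8 FPKM in chlorpyrifos, DDT, rotenone, deltamethrin and imidacloprid, and 13.3 FPKM in control. The log2 difference from control was -2.46, with -2.35 from the starts and -2.57 from the ends. The 6 other libraries lay within 12.1 to 14.9 FPKM, and carbaryl lay 2.34 log2 units below the lowest of them. The drop ran through the whole gene: its main start gave 0.70 FPKM in carbaryl and 11.9 FPKM in control, and its main end 0.72 FPKM in carbaryl and 13.1 FPKM in control. Its partner genes were closer to their control values. The retinoid X receptor gene Rxra, whose product pairs with it, stood at 9.61 FPKM in carbaryl and 10.6 FPKM in control, and Rxrb at 13.4 FPKM in carbaryl and 14.1 FPKM in control. Scd1, a desaturase gene that the receptor switches on, stood at 67.8 FPKM in carbaryl and 64.8 FPKM in control, inside the 45.7 to 71.9 FPKM of the other exposed libraries. Only 4 of the 14 genes of the receptor's list could be compared.

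Ppp1r11 and Pdha1 were lower genes whose values lay close together in the other 6 libraries. Ppp1r11 (chr17:36948356-36951741, minus strand), an inhibitor of protein phosphatase 1, stood at 4.06 FPKM in carbaryl, 23.9, 21.7, 19.9, 22.6 and 22.1 FPKM in chlorpyrifos, DDT, rotenone, deltamethrin and imidacloprid, and 22.5 FPKM in control, a log2 difference of -2.22. Pdha1 (chrX:160122209-160138413, minus strand) encodes the E1 alpha subunit of pyruvate dehydrogenase, which feeds pyruvate into the citric acid cycle. It stood at 37.7 FPKM in carbaryl, 84.95, 85.1, 87.3, 83.5 and 83.1 FPKM in the same 5 exposed libraries, and 83.9 FPKM in control, a log2 difference of -1.13. For Pdha1 the 6 other libraries spanned only 83.1 to 87.3 FPKM, and carbaryl lay 1.12 log2 units under the lowest of them.

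Several of the other named lower genes carried a second transcript form in carbaryl that was weak or absent elsewhere. Cdc26, a subunit of the anaphase-promoting complex, stood at 14.0 FPKM in carbaryl, 34.6, 39.0, 34.01, 41.8 and 36.4 FPKM in chlorpyrifos, DDT, rotenone, deltamethrin and imidacloprid, and 35.9 FPKM in control. In carbaryl 9.21 FPKM of it lay on a downstream end that no other library listed, and 4.79 FPKM on the usual end, which held 35.9 FPKM in control. Rfc4, a subunit of the clamp loader of DNA replication, stood at 8.70 FPKM in carbaryl, 25.5, 19.2, 25.3, 20.8 and 22.7 FPKM in the same 5 exposed libraries, and 22.8 FPKM in control. Its usual end held 1.08 FPKM in carbaryl and 22.9 FPKM in control, while an end with another inner boundary held 7.97 FPKM in carbaryl, 0.18 to 4.23 FPKM in the other exposed libraries and 0.23 FPKM in control. Ift43, a part of the intraflagellar transport machinery of cilia, stood at 9.77 FPKM in carbaryl, 21.5 to 24.2 FPKM in the other exposed libraries (median 21.8) and 21.5 FPKM in control. The form without its exon at chr12:86138793-86138825 gave 3.90 FPKM in carbaryl, at most 2.10 FPKM in the other exposed libraries and 0.72 FPKM in control. Smim20, a small protein of mitochondrial cytochrome oxidase assembly, stood at 4.06 FPKM in carbaryl, 12.9 to 15.1 FPKM in the other exposed libraries and 14.5 FPKM in control. A skipped exon of Smim20 was included at 1.26 FPKM in carbaryl and was listed in no other library.

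The remaining named lower genes were Xpnpep1 (an aminopeptidase), Gak (a kinase that strips clathrin from vesicles), Fbxo34 (an F-box protein), Cdkn2aip (a partner of the ARF tumour suppressor) and Wdfy1 (an endosomal protein). Xpnpep1 stood at 9.93 FPKM in carbaryl, 32.2, 29.2, 38.3, 39.1 and 34.5 FPKM in chlorpyrifos, DDT, rotenone, deltamethrin and imidacloprid, and 28.5 FPKM in control. Gak stood at 3.55 FPKM in carbaryl, 15.2, 16.9, 13.3, 12.7 and 10.6 FPKM in the same 5 exposed libraries, and 8.83 FPKM in control. Control was the next lowest library for both genes. Fbxo34 stood at 1.08 FPKM in carbaryl, 6.64 to 8.64 FPKM in the other exposed libraries and 6.19 FPKM in control. Cdkn2aip and Wdfy1 were at 1.99 and 2.20 FPKM in carbaryl and 6.05 and 6.03 FPKM in control, and control was the lowest of the 6 other libraries for each. No start or end inside the span of any of the 24 named genes, on its strand, carried another gene's name. Mob3c, Nudt16, Ypel4 and Kctd12b had no line in carbaryl alone, stood at 1.75 to 2.16 FPKM in control, and were given no fold. They were chosen after their values were seen.

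The named higher genes differed from the lower ones in how little carbaryl exceeded the next library. Gaps of 2-fold above the next library were absent or rare in the other libraries too. Only Abi2 and Kcnk2 had a gap above 0.3 log2 units. Abi2 (chr1:60409619-60481158, plus strand), an Abl interactor in the WAVE complex that drives actin branching, stood at 45.6 FPKM in carbaryl, 15.7, 26.7, 4.36, 5.26 and 6.82 FPKM in chlorpyrifos, DDT, rotenone, deltamethrin and imidacloprid, and 4.41 FPKM in control. The log2 difference from control was 3.11, and the 5 other exposed libraries ranged as widely as 4.36 to 26.7 FPKM. Most of the Abi2 signal in carbaryl, 38.3 FPKM, came from an internal start at chr1:60437083-60437232, which gave 0.71 FPKM in control and at most 5.75 FPKM elsewhere. The gene's first start gave 7.60 FPKM in carbaryl and 3.71 FPKM in control.

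Kcnk2 (chr1:189207930-189402273, minus strand) encodes TREK-1, a potassium channel of the resting membrane that answers stretch and lipids. It stood at 10.9 FPKM in carbaryl, 3.46, 5.87, 5.17, 5.16 and 6.59 FPKM in chlorpyrifos, DDT, rotenone, deltamethrin and imidacloprid, and 1.27 FPKM in control. Carbaryl was the highest and control the lowest of the 7, and the log2 difference of 2.39 falls to 0.95 against the median of the other exposed libraries. A start at chr1:189343991-189344192 gave 4.28 FPKM in carbaryl, at most 0.69 FPKM in the other exposed libraries and had no line in control. The usual start gave 5.81 FPKM in carbaryl and 0.84 FPKM in control, and 3.39 to 6.45 FPKM in the other exposed libraries.

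The other named higher genes were Zkscan3, a zinc finger repressor of autophagy genes, Gng2, a G protein gamma subunit, Lsm5, part of the ring that binds U6 RNA, Cdkn2d, an inhibitor of the kinases CDK4 and CDK6, Arih1, a ubiquitin ligase, Epb41, the membrane skeleton protein 4.1R, Commd6, Ap2b1, a clathrin adaptor subunit, Pop4, a subunit of RNase P, and Eno1b. Gng2 stood at 57.4 FPKM in carbaryl, 28.6, 39.7, 26.2, 48.6 and 27.5 FPKM in chlorpyrifos, DDT, rotenone, deltamethrin and imidacloprid, and 25.7 FPKM in control. Lsm5 stood at 32.7 FPKM in carbaryl, 5.03 to 28.2 FPKM in the same 5 exposed libraries (median 7.999), and 7.54 FPKM in control. Both varied widely among the exposed libraries, and carbaryl was at the high end of a spread. Eno1b, which nearly duplicates Eno1, the gene of a glycolytic enzyme, stood at 107 FPKM in carbaryl, 2.55 to 103 FPKM in the other exposed libraries and 3.33 FPKM in control. Reads of Eno1b and Eno1 can be exchanged, so its log2 difference of 4.64 is uncertain. The gap to the next library was 0.01 to 0.28 log2 units for these 10 genes.

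**Figure D3:**
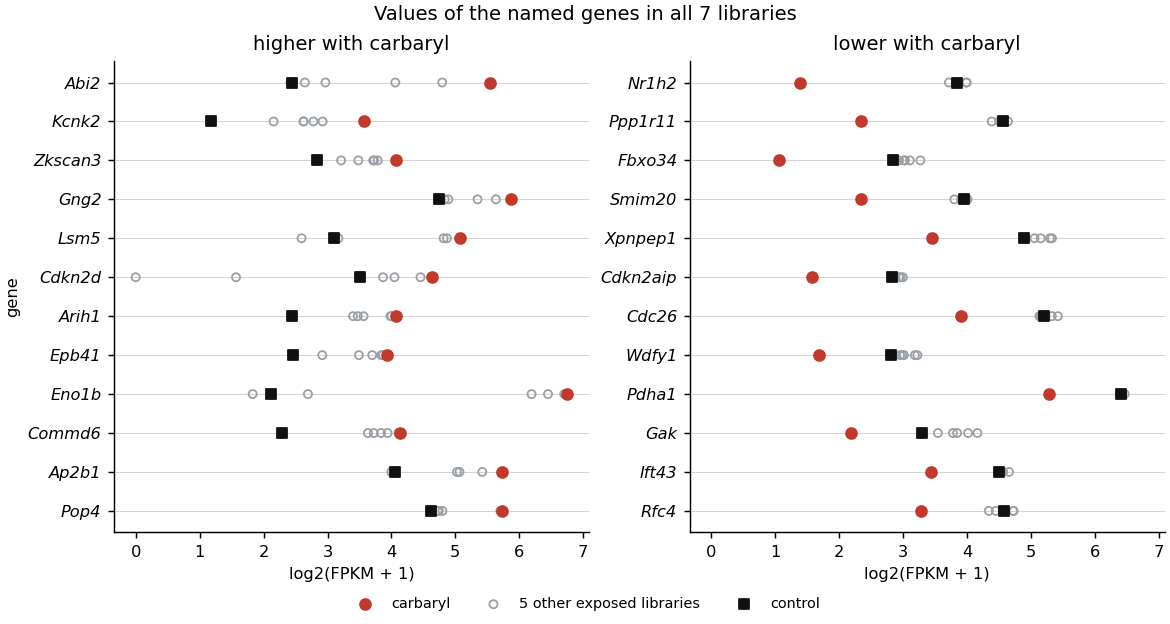
Values of the 12 named higher genes (left) and 12 named lower genes (right) as log2(FPKM + 1), with 1 library per point: carbaryl (red), the 5 other exposed libraries (open grey) and control (black). The lower genes have carbaryl alone on the left, 1.06 to 2.34 log2 units under the next library, while carbaryl is at most 0.75 above the next library among the higher genes. The genes were picked by this gap, out of 38 lower and 13 higher genes.

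The acetylcholine system, the known target of carbamates, was measured only in part and showed no 2-fold difference. Of its 28 genes, 15 had a start or end line and 4 could be compared, with a median log2 difference of -0.04. Bche, the gene of butyrylcholinesterase, stood at 3.59 FPKM in carbaryl, 1.38 to 3.99 FPKM in the other exposed libraries and 3.26 FPKM in control. Chrna7, a nicotinic receptor subunit, stood at 1.895 FPKM in carbaryl and 2.12 FPKM in control. Ric3, a chaperone of that receptor, stood at 3.73 FPKM in carbaryl and 4.20 FPKM in control, and Lynx1, a toxin-like modulator of nicotinic receptors, at 7.08 FPKM in carbaryl and 6.92 FPKM in control. All 4 lay within the range of the other 6 libraries.

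The other acetylcholine genes have values from the larger of their start and end totals, without a fold. Ache, the gene of the enzyme that carbaryl blocks, stood at 0.727 FPKM in carbaryl, 0.319 to 2.04 FPKM in the other exposed libraries and 1.10 FPKM in control. The nicotinic subunit Chrna4 stood at 5.15 FPKM in carbaryl, 3.18 to 4.47 FPKM in the other exposed libraries and 3.51 FPKM in control, the only measured gene of the system with carbaryl above all 6 others. Chrnb2 stood at 3.28 FPKM in carbaryl and 3.08 FPKM in control, Chrna3 at 0.821 FPKM in carbaryl and 1.11 FPKM in control, and the muscarinic receptor Chrm3 at 0.678 FPKM in carbaryl and 0.660 FPKM in control. Slc44a1, a choline transporter, stood at 11.5 FPKM in carbaryl and 13.2 FPKM in control. Chrna5, Chrnb4, Chrm1 and Prima1 had no line in carbaryl or in control, and Chrnb1 had none in carbaryl and stood at 0.495 FPKM in control.

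The wider family of serine hydrolases was also close to level. Of 29 genes, 13 could be compared, 5 higher and 8 lower, with a median log2 difference of -0.04 and none at 2-fold. The largest was Esd, esterase D, at 24.8 FPKM in carbaryl, 10.2 to 68.8 FPKM in the other exposed libraries and 46.5 FPKM in control. Abhd16a, a lipase for phosphatidylserine, stood at 8.97 FPKM in carbaryl and 11.3 FPKM in control. Siae and Abhd2 were above all 6 other libraries, Siae with 4.36 FPKM in carbaryl and 3.50 FPKM in control, Abhd2 with 9.52 FPKM in carbaryl and 7.93 FPKM in control. Of 10 genes of the aryl hydrocarbon receptor pathway, which senses aromatic chemicals, 3 could be compared. Tiparp, a target that feeds back on the receptor, stood at 11.5 FPKM in carbaryl, 9.82 to 11.2 FPKM in the other exposed libraries and 10.2 FPKM in control. Cyp1b1, another target, stood at 0.869 FPKM in carbaryl, at most 0.819 FPKM in the other exposed libraries and had no line in control.

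The gene lists differed in direction, and most of their genes were near control. Across the 33 lists, 280 distinct genes were compared, of which 4 were at least 2-fold higher (Eno1b, Kcnk2, Syt1 and Ndufv1) and 5 at least 2-fold lower (Nr1h2, Kitl, Tug1, Rpl23 and Srsf1). That is 3.21% of the list genes, beside 1.96% of all genes. The lists were chosen with earlier results of these data known, so no excess can be read from these shares. Carbaryl had the lowest median among the 6 exposed libraries in 6 of the 24 lists with at least 5 members used and the highest in 1. The other exposed libraries had the lowest in 1 to 5 lists and the highest in 3 to 6. All these medians share the 1 control library.

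Genes of the integrated stress response, which ATF4 switches on when translation is throttled, had a median log2 difference from control of -0.00 over 11 members in carbaryl, with 3 higher and 8 lower. The median was 0.26 in chlorpyrifos, 0.48 in DDT, 0.31 in rotenone, 0.18 in deltamethrin and 0.05 in imidacloprid, which was also close to control. Trib3 stood at 0.43 FPKM in carbaryl, 1.06 to 2.18 FPKM in the other exposed libraries and 0.66 FPKM in control. Asns, asparagine synthetase, stood at 32.8 FPKM in carbaryl, 35.2 to 53.6 FPKM in the other exposed libraries and 32.8 FPKM in control. Chac1, a glutathione-degrading enzyme, stood at 2.49 FPKM in carbaryl, 3.13 to 8.49 FPKM in the other exposed libraries and 2.10 FPKM in control. Carbaryl was thus beside control and under all 5 other exposures for these 3 genes. Vldlr, a lipoprotein receptor, was the exception with 8.26 FPKM in carbaryl, 6.64 to 9.12 FPKM in the other exposed libraries and 4.28 FPKM in control. Targets of NRF2, the sensor of oxidants and electrophiles, had a median of -0.04 over 15 members in carbaryl, with 5 higher and 10 lower, and -0.01 to 0.12 in the other exposed libraries. Mgst1, a microsomal glutathione transferase, stood at 34.7 FPKM in carbaryl, 29.1 to 86.8 FPKM in the other exposed libraries and 47.7 FPKM in control, and Hmox1, heme oxygenase, at 22.9 FPKM in carbaryl, 19.1 to 31.0 FPKM in the other exposed libraries and 19.8 FPKM in control.

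Immediate early genes and targets of p53 were higher than control in carbaryl, as in the other exposed libraries. All 6 immediate early genes used were higher, with a median log2 difference of 0.31, and the median was 0.07 to 0.36 in the other 5. Nr4a3 stood at 1.75 FPKM in carbaryl, 0.93 to 1.52 FPKM in the other exposed libraries and 0.58 FPKM in control, and Fos at 4.26 FPKM in carbaryl, 2.53 to 4.74 FPKM in the other exposed libraries and 2.66 FPKM in control. Egr1 stood at 18.7 FPKM in carbaryl, 14.6 to 23.4 FPKM in the other exposed libraries and 14.0 FPKM in control. Of 7 targets of p53, 6 were higher, with a median of 0.17 in carbaryl and 0.04 to 0.18 in the others. Against the median of the 6 other libraries in place of control, the carbaryl medians were 0.14 for the immediate early genes and 0.08 for the targets of p53. Cdkn1a, the cell cycle inhibitor p21, stood at 75.7 FPKM in carbaryl, 62.8 to 79.6 FPKM in the other exposed libraries and 61.0 FPKM in control. Trp53inp1 stood at 20.3 FPKM in carbaryl, 15.7 to 19.5 FPKM in the other exposed libraries and 16.6 FPKM in control. No member of these 2 lists passed 2-fold, and the control library was the lowest of the 7 for Nr4a3, Egr1, Arc, Cdkn1a, Ccng1 and Phlda3.

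**Figure D4:**
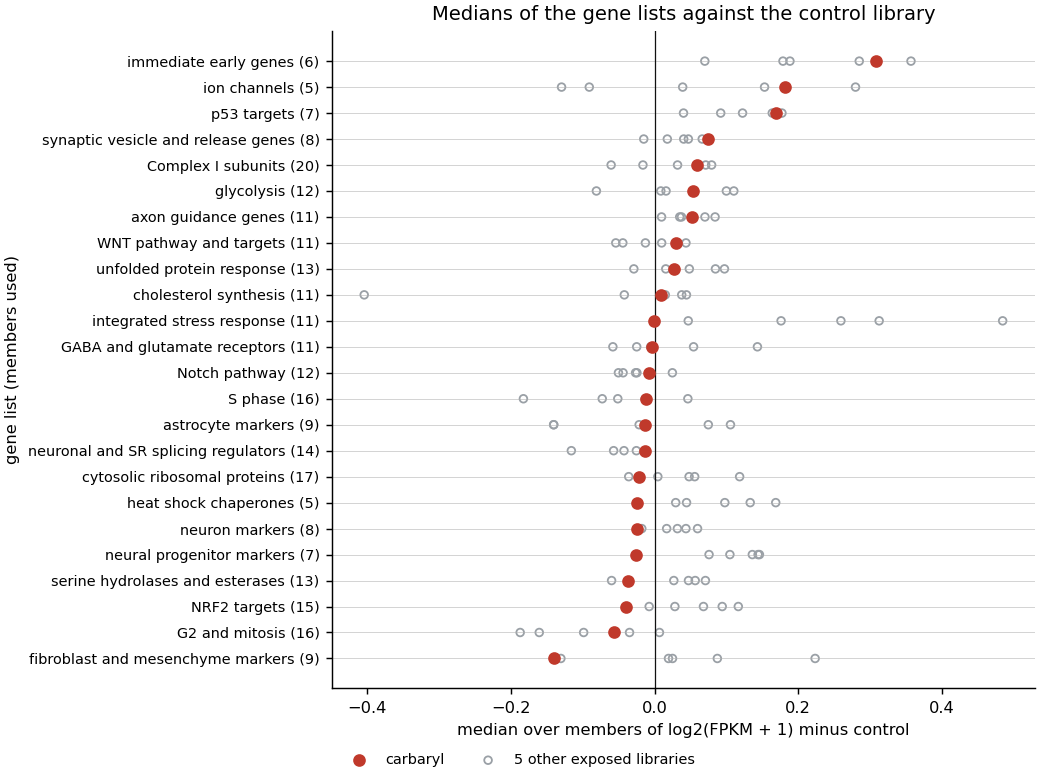
Median log2(FPKM + 1) difference from the control library over the members used of each of 24 gene lists (their number in brackets), for carbaryl (red) and the 5 other exposed libraries (open grey). The integrated stress response median is -0.00 in carbaryl and 0.05 to 0.48 in the others, while the immediate early median of 0.31 lies inside their 0.07 to 0.36.

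The neural lineage markers that could be compared had median differences near 0 with carbaryl, and glial differentiation, which the series set out to measure, had few usable marker values. The summed levels of all astrocyte and all progenitor markers listed were lower than in control. Astrocyte markers summed to 1562 FPKM in carbaryl, 901 to 3333 FPKM in the other exposed libraries and 3375 FPKM in control, and progenitor markers to 2283 FPKM in carbaryl, 1503 to 4160 FPKM in the other exposed libraries and 4162 FPKM in control. Both sums hold Fabp7, a fatty acid binding protein of radial glia with no fold because its start and end totals disagreed, which stood at 762 FPKM in carbaryl, 66.2 to 2521 FPKM in the other exposed libraries and 2620 FPKM in control. Fabp7 alone held about the whole difference between carbaryl and control in both sums. Neuron markers summed to 690.1 FPKM in carbaryl, 658 to 731 FPKM in the other exposed libraries and 682 FPKM in control. Over 9 astrocyte markers the median log2 difference was -0.01 (4 higher, 5 lower), and -0.14 to 0.11 in the other exposed libraries. Hepacam, a glial adhesion protein, stood at 1.30 FPKM in carbaryl and 1.10 FPKM in control, and Glul, glutamine synthetase, at 151 FPKM in carbaryl and 149 FPKM in control. Over 8 neuronal markers the median was -0.02, and -0.02 to 0.06 in the others. Dcx, a microtubule protein of young neurons, stood at 25.9 FPKM in carbaryl and 26.4 FPKM in control, and Nefm, a neurofilament, at 8.03 FPKM in carbaryl, 8.43 to 9.60 FPKM in the other exposed libraries and 10.2 FPKM in control. Over 7 progenitor markers the median was -0.03 in carbaryl and 0.08 to 0.15 in the others. Hes5, a Notch target that keeps progenitors undifferentiated, stood at 6.10 FPKM in carbaryl, 6.30 to 9.98 FPKM in the other exposed libraries and 8.23 FPKM in control, the lowest of the 7. Pax6 stood at 10.7 FPKM in carbaryl and 11.7 FPKM in control, and Pdgfra, a receptor of oligodendrocyte precursors, at 2.78 FPKM in carbaryl and 2.58 FPKM in control.

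Of the proliferation lists, G2 and mitosis had 3 of 16 members higher and 13 lower, with a median log2 difference of -0.06 in carbaryl and -0.19 to 0.01 in the other exposed libraries. Ccnb1, cyclin B1, stood at 40.1 FPKM in carbaryl, 30.3 to 62.4 FPKM in the other exposed libraries and 60.3 FPKM in control, and Mki67 at 42.7 FPKM in carbaryl, 35.6 to 48.9 FPKM in the other exposed libraries and 52.5 FPKM in control. Fibroblast and mesenchyme genes had a median of -0.14 over 9 members in carbaryl and -0.13 to 0.22 in the others, and the summed level of the 12 listed genes was 146 FPKM in carbaryl, 160 to 206 FPKM in the other exposed libraries and 176 FPKM in control. Sparc stood at 111 FPKM in carbaryl and 140 FPKM in control, and Col1a1 at 2.49 FPKM in carbaryl and 3.19 FPKM in control. The part of such cells in the results was not tested. Endothelial and blood markers summed to 1.60 FPKM in carbaryl, 1.12 to 1.84 FPKM in the other exposed libraries and 1.25 FPKM in control, and microglia markers to 0.731 FPKM in carbaryl, at most 0.781 FPKM in the other exposed libraries and 0 in control.

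Of the other list genes past 2-fold, 4 had carbaryl below all 6 other libraries and 1 did not stand apart. Rpl23, a protein of the large ribosomal subunit, stood at 226 FPKM in carbaryl, 434 to 486 FPKM in the other exposed libraries and 467 FPKM in control. Srsf1, a splicing factor that promotes exon inclusion, stood at 63.2 FPKM in carbaryl, 98.9 to 130 FPKM in the other exposed libraries and 134 FPKM in control, a log2 difference of -1.07. Kitl, the ligand of the KIT receptor, stood at 12.5 FPKM in carbaryl, 57.0, 59.8, 61.1, 12.9 and 64.8 FPKM in chlorpyrifos, DDT, rotenone, deltamethrin and imidacloprid, and 62.4 FPKM in control. Deltamethrin shared the low Kitl value. Tug1, a long noncoding RNA, stood at 2.34 FPKM in carbaryl, 3.03 to 21.1 FPKM in the other exposed libraries and 12.9 FPKM in control. Ndufv1, a core subunit of respiratory Complex I, stood at 54.3 FPKM in carbaryl, 23.0 to 63.5 FPKM in the other exposed libraries and 24.5 FPKM in control. Among the 20 Complex I genes used, 15 were higher, with a median of 0.06 in carbaryl and -0.06 to 0.08 in the others.

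At the level of single events, ends differed least often, then exon inclusion, starts and exon skipping, and single retained introns more often than these. Among starts with a mean of at least 1 FPKM, 12.4% differed 2-fold between carbaryl and control (819 higher and 834 lower of 13366), and among ends 5.82% did (231 higher and 261 lower of 8457). The 5 other exposed libraries gave 11.7% to 12.5% of starts and 5.26% to 5.98% of ends. Exon inclusion lines differed in 11.4% and exon skipping lines in 13.8%, against 10.6% to 11.9% and 12.6% to 13.8% in the others. Retained intron lines differed in 18.5% of 729, and 18.3% to 21.0% in the others. Carbaryl was within the range of the other exposed libraries for each of these types.

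The share of an exon's transcripts that include it was taken from paired inclusion and skipping lines. Of 6358 single skipped exons, 364 had a share at least 20 percentage points higher in carbaryl and 412 at least 20 points lower, together 12.2%, against 11.5% to 12.3% in the other exposed libraries. Of 1067 groups of several skipped exons, 61 were higher and 48 lower (10.2%, others 9.93% to 11.5%), and of 1993 retained introns, 86 were higher and 92 lower (8.93%, others 8.48% to 9.13%). Exons whose length is a multiple of 3, which leave the reading frame intact when skipped, made up 61.5% of the higher and 58.0% of the lower exons, beside 50.3% of all 6358. Exons of at most 51 bases made up 17.0% of the higher and 18.9% of the lower, beside 13.1% of all. Carbaryl was 20 points past control and outside all 6 other libraries in 148 exons above and 184 below, against 131 to 158 above and 142 to 189 below in the others.

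The fully coding exon of Ehmt2 had inclusion far above the other libraries. Ehmt2 (G9a) encodes a methyltransferase that places repressive marks on histone H3. The 102-base exon printed above was included in 93.6% of the FPKM in carbaryl, 7.1%, 24.9%, 28.9%, 31.1% and 19.97% in chlorpyrifos, DDT, rotenone, deltamethrin and imidacloprid, and 8.2% in control. Inclusion and skipping summed to 41.9 FPKM in carbaryl and 44.6 FPKM in control, so the share moved at an even total: inclusion gave 39.2 FPKM in carbaryl and 3.7 FPKM in control. The intron that follows this exon was kept in 0.4% in carbaryl, 0.9% to 40.3% in the other exposed libraries and 44.7% in control. Its spliced form had the same FPKM as the inclusion of the exon in carbaryl and in control, so the 2 shares are not separate. The kept form gave 0.17 FPKM in carbaryl and 2.97 FPKM in control. Epb41 is known for a regulated exon of the spectrin and actin binding domain, and the 63-base exon printed above lies there. By its paired lines it was included in 80.4% in carbaryl, 26.8% in chlorpyrifos, and 0.0% in DDT, rotenone, deltamethrin, imidacloprid and control. That inclusion line counts only forms without the neighbouring upstream exons. It gave 9.4 FPKM in carbaryl and was at 0.0 FPKM in control, where skipping gave 2.6 FPKM. Forms with the exon and those neighbours gave 3.31 FPKM in carbaryl, 1.80 to 7.18 FPKM in the other exposed libraries and 1.63 FPKM in control. The exon was thus included in every library, and 80.4% is not its share over all forms in carbaryl. An internal start of Epb41 also gave 9.41 FPKM in carbaryl, at most 2.87 FPKM in the other exposed libraries and had no line in control. Slc38a10, an amino acid transporter, had an 87-base exon included in 100% in carbaryl and in 0% in all 6 others, at 9.1 FPKM in carbaryl and with 3.6 FPKM of skipping in control.

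The fully coding exon of Focad had inclusion far below the other libraries. The 258-base exon of Focad, a focal adhesion protein, was included in 0.0% in carbaryl, 57.0% to 100% in the other exposed libraries and 86.5% in control, at a sum of 3.26 FPKM in carbaryl and 6.04 FPKM in control. The leading start of Focad, chr4:88094630-88094675, held 1.5% of its starts in carbaryl, 50.2% to 99.3% in the other exposed libraries and 83.0% in control, so the leading start and the exon were both near 0 in carbaryl. The exon of Sirt2, a tubulin and histone deacetylase, was included in 2.3% in carbaryl and 96.6% in control, but also in 3.4% in chlorpyrifos, at a sum of 18.2 FPKM in carbaryl and 1.65 FPKM in control. The skipped exon of Slmap was included in 1.7% in carbaryl, 6.8% to 96.5% in the other exposed libraries and 92.8% in control, at a sum of 15.4 FPKM in carbaryl and 0.474 FPKM in control. Those 2 exons varied widely among the other exposed libraries too, and their control shares rest on low values.

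Matr3, a nuclear matrix RNA binding protein, had 3 overlapping events past the threshold. A 169-base exon was included in 100% in carbaryl, 0.0% to 84.3% in the other exposed libraries and 0.3% in control. Its sum was 6.23 FPKM in carbaryl and 76.9 FPKM in control. A 1093-base exon was included in 6.5% in carbaryl, 99.9% to 100% in the others and 97.9% in control. Its sum was 106 FPKM in carbaryl and 28.4 FPKM in control. A pair of exons was included in 0.0% in carbaryl and 100% in all 6 other libraries. The 169-base exon lies inside the 1093-base exon, which is also part of that pair, so the 3 events are not separate readings. The signal of the last event was 38.2 FPKM of skipping in carbaryl and 27.0 FPKM of inclusion in control. Other groups of exons with carbaryl apart were in Zyx, the focal adhesion protein zyxin, with 31.0% in carbaryl, 99.8% to 100% in the other exposed libraries and 100% in control, and in Kidins220, a scaffold of neurotrophin receptors, with 0.4% in carbaryl, 43.7% to 80.8% in the other exposed libraries and 54.1% in control. In Lrrfip1 a group of 5 exons was included in 37.8% in carbaryl, at most 2.6% in the other exposed libraries and 0.0% in control.

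Among retained introns, carbaryl was 20 points past control and outside all 6 other libraries in 46 above and 18 below, against 35 to 50 above and 16 to 21 below in the others. An intron of Tmem183a was kept in 100% in carbaryl, 0.0% in the other exposed libraries and 12.6% in control, but at 2.7 FPKM in carbaryl and with 16.0 FPKM of spliced form in control. A retained intron event of the mitochondrial transporter gene Abcb8 covers only 43 bases, all of them coding. This stretch was kept in 47.7% in carbaryl and 100% in all 6 others, at similar sums of 14.7 FPKM in carbaryl and 14.2 FPKM in control. An intron of Haus5, part of the augmin complex of the spindle, was kept in 99.9% in carbaryl and 0.0% in control, but DDT was at 0.0% and the 4 remaining exposed libraries at 99.0% to 99.9%. The kept and spliced forms of Haus5 summed to 11.1 FPKM in carbaryl and only 0.043 FPKM in control, so the control share rests on almost no signal.

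**Figure D5:**
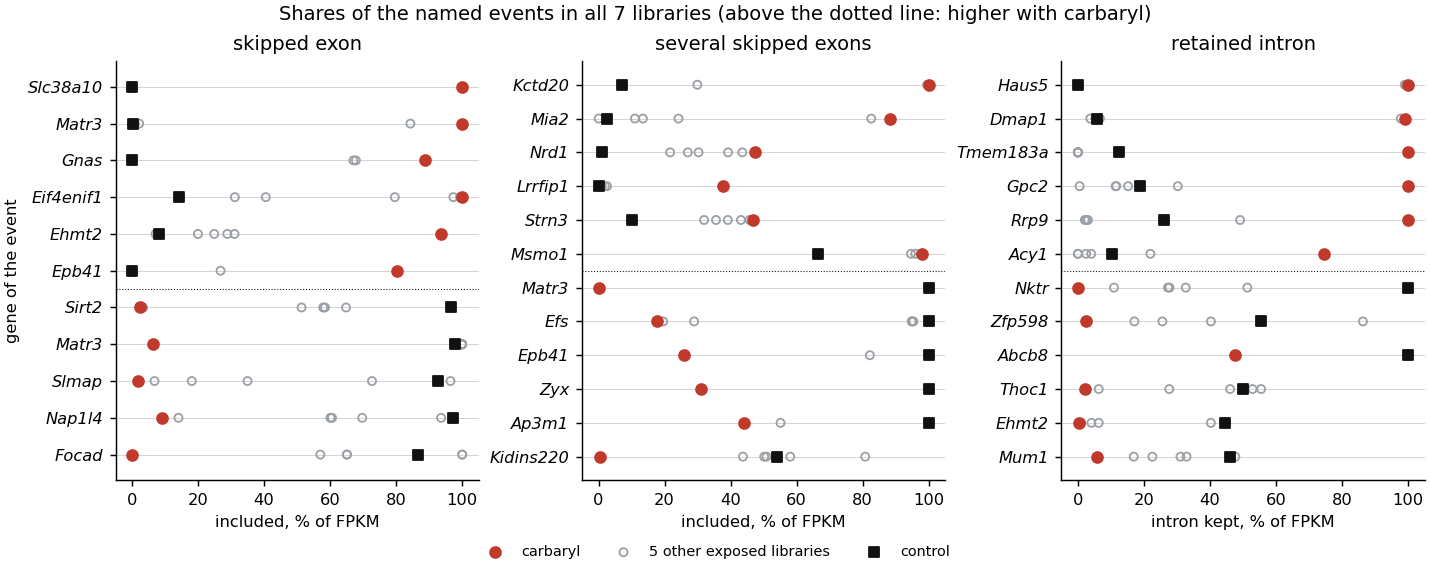
Share of inclusion (skipped exons, left and middle) or of the kept intron (right) in percent of FPKM for the named events of each type, 1 library per point: carbaryl (red), the 5 other exposed libraries (open grey) and control (black). Carbaryl is alone at 93.6% for the exon of Ehmt2 and at 0.0% for that of Focad, while in Sirt2 and Slmap the other exposed libraries spread widely.

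Promoter and end choice were compared as the share of a gene's FPKM on its leading start or end. Of 2624 genes with several starts, the share was at least 20 points higher in carbaryl in 157 and lower in 154 (11.9%, others 11.5% to 12.2%). Of 1320 genes with several ends, 28 were higher and 36 lower (4.85%, others 4.92% to 5.76%). Mier3, a chromatin corepressor, had 0.0% on its leading start (chr13:111686178-111686354) in carbaryl and 100% in all 6 others, at totals of 7.5 FPKM in carbaryl and 6.6 FPKM in control. Actr3, which encodes the actin nucleator ARP3, had 1.5% on its leading start in carbaryl, 74.8% to 98.7% in the other exposed libraries and 97.7% in control, at totals of 84.9 FPKM in carbaryl and 85.7 FPKM in control. Rps14, a protein of the small ribosomal subunit, had 0.9% in carbaryl, 73.7% to 86.3% in the others and 84.0% in control. Among ends, Gak had 7.9% on its leading end in carbaryl, 78.9% to 98.3% in the other exposed libraries and 87.6% in control, and Rfc4 11.9% in carbaryl, 83.2% to 99.2% in the others and 99.0% in control. Srsf1, low in carbaryl as a gene, had 93.5% on its leading end in carbaryl, 62.0% to 68.8% in the others and 58.9% in control.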

How the data were processed

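The submitters' processing notes name HISAT2 2.0.1, cutadapt 1.9.1, bcl2fastq 2.17.1.14 and the mouse build GRCm38. The authors deposited 1 table per library with FPKM values per transcript event (start, end, skipped exon, retained intron, alternative exon), per the file headers. The tool behind the FPKM is not given in the sources read. The values are estimates down to 1e-06 FPKM, so depth and counting error are unknown.

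Repeated lines were dropped, and an event missing from a table was taken as 0. Starts and ends were summed by the gene ID on the line. Genes were kept where both totals agreed within 0.3 log2 over the 7 libraries, each total was within 0.1 log2 of that by GENCODE M21, and the mean was at least 1 FPKM; another 3432 genes at that level had totals that disagreed. Of the 638 list genes, 281 were used. Folds used a pseudocount of 1 FPKM. Shares needed a mean sum of at least 5 FPKM.

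Named genes had at least 5 FPKM, a 2-fold difference and carbaryl outside the other 6 libraries, and were the 12 in each direction with the widest gap, without predicted models. Named events were those with the largest share difference from control, past 20 points and with carbaryl outside the other 6 libraries by any margin, and 1 of them is not reported here. Groups came from the sample titles. With 1 library per group no test was made and no p-value is given. The members and lists were chosen with earlier results of these data known. Alternatives were another pseudocount, other filters, 1 end only, annotation names, median-ratio scaling and another reference. Python 3.11.15, pandas 2.3.3, numpy 2.4.6 and matplotlib 3.10.9 were used, and the scripts were tested on simulated data.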

Additional observations from a re-analysis of the deposited data

How the results depend on the processing

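No paired analysis was possible because each group has 1 library, and no library could be left out for the same reason. None of the 24 named genes turned its direction under the alternatives run. They were chosen with carbaryl outside the other 6 libraries. With another pseudocount, another filter on low values or the median of those 6, a turn was therefore impossible. Those settings are no check on their direction. Totals from 1 end or from the annotation are at most a weak check, because genes were kept only where those totals agreed. Several list medians near 0 did turn. Against the median of the 6 other libraries that of astrocyte markers was 0.05 and that of the WNT list -0.02. With the larger total of every gene that of serine hydrolases was 0.01 and that of astrocyte markers 0.01. Median-ratio scaling and dropping the filter on low values left the counts of genes within 1.5 times. With a pseudocount of 0.1 FPKM, 74 genes were higher; with 5 FPKM, 25 were higher and 24 lower, so the excess of lower genes was gone. From starts alone 64 were higher. Against the median of the 6 other libraries 14 were higher and 42 lower. Of the 24 named genes, 16 were 2-fold past that median and 17 with a pseudocount of 5 FPKM.

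Stricter filters test fewer features. With a mean of at least 5 FPKM, the lines past 2-fold were 728 for starts, 237 for ends and 387 for alternative exons. With inclusion and skipping lines pooled, they were 757 for single skipped exons and 196 for several skipped exons. With kept and spliced lines pooled, they were 240 for retained introns. The same pooled counts were 1670, 455 and 473 with a mean of at least 1 FPKM. At 5 FPKM, 1 list median lay 0.1 or more from 0. Against the median of the 6 others, 326 ends, 31 higher and 42 lower groups of exons, 72 higher and 33 lower retained introns and 74 higher leading starts were past the threshold, so the balance of higher and lower shares turned for groups of exons (61 and 48) and introns (86 and 92). With a sum of at least 1 FPKM the shares gave 730 higher and 759 lower exons, 136 and 127 groups of exons, and 161 and 192 introns; with 20 FPKM they gave 78 and 101, 7 and 11, and 23 and 14, and the balance turned for the same types. With totals of at least 20 FPKM, leading starts gave 43 higher and 58 lower, and leading ends 11 and 12. The unknown depth limits what low events can show.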

Other observations

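Some values in carbaryl belong to genes whose start and end totals disagreed, so they have no fold. Smpdl3a, a lipid-linked phosphodiesterase and a target of liver X receptors, had an end total of 700.0 FPKM in carbaryl, 0.076 to 4.82 FPKM in the other exposed libraries and 5.09 FPKM in control. The value was listed for 1 library and its cause was not tested. Lpcat3, a phospholipid enzyme of the same list, had a start total of 15.4 FPKM in carbaryl, 11.5 to 14.6 FPKM in the other exposed libraries and 7.41 FPKM in control. Stmn2, a neuronal microtubule regulator, stood at 40.3 FPKM in carbaryl, 23.0 to 42.2 FPKM in the other exposed libraries and 20.02 FPKM in control. The values of Stmn2 varied widely among the 5 other exposed libraries too. These genes were chosen after their values were seen. Gdf15, a stress hormone, had no line in carbaryl, rotenone and deltamethrin and stood at 6.93 FPKM in DDT and 0.895 FPKM in control.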
